A study of Mus musculus with 3 samples.

Results

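The genes described here are 10 beta-catenin targets and feedback inhibitors of Wnt signalling, out of 18348 genes that could be named on the arrays. They are listed by name for their role in the pathway, by a rule that uses no measured value. The choice was made with earlier results of these data known. Every non-control probe whose accession belongs to one of the genes was used, which gave 13 probes. Wif1, Kremen1, Rnf43, Znrf3, Axin2, Lef1 and Ccn4 had 1 named probe each, and Nkd1, Nkd2 and Tcf7 had 2 each.

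RNA came from 3 kinds of culture of the mouse cell line C2C12, whose dividing myoblasts fuse to multinucleated myotubes when serum is low, with 1 one-colour Agilent array for each. Neurogenic cellulates were labelled with the same BIO treatment as BIO cellulates, then seeded on laminin and kept for 7 days in a neurogenic medium, DMEM/F12 to which N2 was added along with all-trans retinoic acid at 1.5 µM. Reversine at 250 nM was given to them for 48 h. BIO cellulates came from myotubes differentiated for 8 days (2% horse serum; AraC at 10 µM between days 2 and 4, which kills dividing cells), split into mononucleate pieces with myoseverin, a compound that takes microtubules apart, and given BIO for 2 days. Myoblasts were untreated. The sample labels give BIO as 2.5 µM, while the treatment protocol and the design text give 10 µM. Myoseverin is given as 30 µM in the treatment protocol and as 20 µM in the design text. Neither plain myotubes nor cellulates without BIO were analysed here, and in a comparison with myoblasts the effects of BIO, myoseverin, AraC and differentiation cannot be told apart. Likewise, medium, reversine, retinoic acid and time cannot be told apart between the cellulates. With 1 array per group there is no replicate, no p-value and no estimate of the spread between cultures.

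In canonical Wnt signalling, a cytoplasmic complex of Axin, APC and casein kinase holds beta-catenin where GSK-3 phosphorylates it and marks it for destruction. A Wnt ligand bound to Frizzled and LRP receptors, or a GSK-3 inhibitor such as BIO, lets beta-catenin build up and enter the nucleus, where it binds TCF and LEF factors and turns on target genes. Several targets encode inhibitors of the same pathway, so that the signal limits itself, at the ligand, at the receptor, at Dishevelled or at the destruction complex. In skeletal muscle the pathway is known for roles in the embryonic formation of muscle and in the differentiation of satellite cells.

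Scaled signals are log2 ratios of a probe's processed intensity to the 75th percentile of its array's non-control spots, so 0 is a signal at that percentile. A gene was measured where its probe was flagged as well above background. Where only 1 of the 2 arrays compared measured it, the fold is a lower bound, taken on the dim array against that probe's signal or the faintest signal flagged as well above background there, whichever was higher. The faintest signals so flagged were -2.57 in neurogenic cellulates, -2.73 in BIO cellulates and -3.73 in myoblasts, as scaled log2 signals. A gene flagged in cellulates whose myoblast signal lay below that level therefore counts as at least 2-fold higher, whatever its cellulate signal. The error after ± is the scanner software's own error of the spots on both arrays, combined on the log2 scale. It covers 1 spot per array and not the cultures. Non-control probes printed several times on each array, and well above background, gave a second measure of spot error. For spots below 100 intensity units, the 95% limit of a single-spot difference was 1.62-fold in BIO cellulates against myoblasts and 1.51-fold in neurogenic against BIO cellulates. For spots of 100 to 1000 units these limits were 1.40-fold and 1.27-fold.

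Of 43379 non-control spots on each array, 45.7% to 50.7% were well above background and 0 were saturated. Marker genes were read next to the labels. In BIO cellulates all 15 markers of terminal skeletal muscle exceeded myoblasts by at least 2-fold, and their summed scaled signal was 4167 in neurogenic cellulates, 5480 in BIO cellulates and 265 in myoblasts. Of 8 proliferation markers, the 5 that could be compared were at least 2-fold lower in BIO cellulates than in myoblasts, and the summed signal of the 8 was 18.3 in neurogenic cellulates, 19.9 in BIO cellulates and 160 in myoblasts. In neurogenic cellulates 5 of 7 markers were at least 2-fold lower than in myoblasts. The other 2 were higher by bounds, Mcm2 by at least 5.06-fold and Top2a by at least 2.46-fold. Both lay below the faintest flagged signal in myoblasts, so their calls past 2-fold followed from being flagged in neurogenic cellulates. Top2a had 28.8 units there, near the faintest flagged signal of 26.2 units. Mcm2 was also at least 2.37-fold higher in neurogenic than in BIO cellulates. Of 10 neuronal markers, 4 were well above background in neurogenic cellulates, 5 in BIO cellulates and 5 in myoblasts, and their summed signal was 5.47, 6.37 and 8.50 in that order. Most of each sum came from Tubb3, with scaled log2 signals of 1.94, 2.20 and 2.92, so the sums mainly follow that gene. No array had Neurod1, Nefl or Snap25 well above background. Nefm, a neurofilament gene, was well above background in neurogenic cellulates alone (53.8 units). It was at least 2.30-fold higher than in BIO cellulates and at least 4.60-fold higher than in myoblasts. In each comparison it was the 1 of 6 neuronal markers at least 2-fold higher, and 0 were lower. Shares of all genes were 4.16% and 1.80% against BIO cellulates, and 12.1% and 10.0% against myoblasts. The median of the 6 was -0.32 between the cellulates, beside -0.17 over all genes compared. Of 6 neuronal markers compared between BIO cellulates and myoblasts, 2 were at least 2-fold higher and 0 lower (11.2% and 6.01% of all genes). These were Dcx, by at least 3.82-fold, and Stmn2, by 2.03-fold. Their signals were low, at 33.0 and 30.8 units in BIO cellulates and 11.4 and 23.8 units in myoblasts. Genes measured on both arrays below 50 units had a median log2 difference of 0.59 here, beside 1.02 for Stmn2. The myoblast signal of Dcx lay below the faintest flagged there, so its call past 2-fold followed from being flagged in BIO cellulates. Dcx was well above background in BIO cellulates alone. None of 4 endothelial markers was well above background on any array, and 1 of 3 macrophage markers was on every array. Of 6 fibroblast markers 4 were well above background on every array, with a summed signal of 245 in neurogenic cellulates, 276 in BIO cellulates and 508 in myoblasts. Most of each sum came from Col1a1, with scaled log2 signals of 7.13, 7.58 and 8.83. Against myoblasts, 1 of 4 fibroblast markers was at least 2-fold higher and 2 lower in BIO cellulates (11.2% and 6.01% of all genes). In neurogenic cellulates 2 of 4 were higher and 2 lower (12.1% and 10.0%). Among the fibroblast markers, Dcn was 6.47-fold higher and Postn 5.58-fold lower in neurogenic than in BIO cellulates.

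Rnf43 and Nkd2 stood far above their myoblast level in BIO cellulates, at 7.46-fold and 4.34-fold higher, while Ccn4 was 2.83-fold lower and Lef1 2.49-fold lower. Thus 2 of the 9 genes that could be compared were at least 2-fold higher, where 11.2% of 12829 genes were, and 2 were at least 2-fold lower, where 6.01% of genes were. All 4 were measured on both arrays, and among genes measured on both the shares were 8.43% higher and 6.13% lower. The median of the 9 was 0.51 on the log2 scale, beside 0.00 over all genes compared. With so few genes the counts say little about the group, and the genes within it lay on both sides. In bulk RNA, fewer cells of a type and less RNA per cell cannot be told apart, and the part that the higher muscle and lower proliferation programmes had in these differences was not tested.

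**Figure D1:**
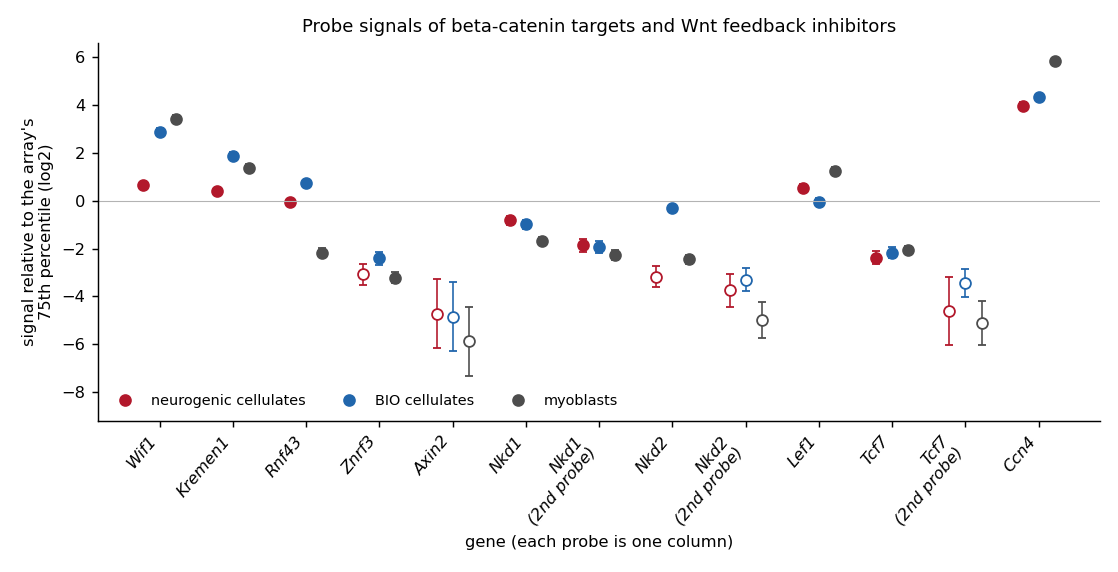
Scaled signal of each of the 13 probes (log2, relative to the array's 75th percentile) on the 3 arrays. Filled circles are well above background, open circles are not, and bars are the scanner software's error of the spot. Columns are different probes, so heights are to be compared within a column only. Rnf43 and Nkd2 were far higher in BIO cellulates than in myoblasts, Wif1 was lowest in neurogenic cellulates, and Axin2 was open on every array.

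The membrane ubiquitin ligases Rnf43 and Znrf3 remove Frizzled from the cell surface, and R-spondins bound to Lgr receptors take these ligases away in turn. Rnf43 had a processed intensity of 148 units in neurogenic cellulates, 190 units in BIO cellulates and 40.1 units in myoblasts. Its scaled signals were -0.08 in neurogenic cellulates, 0.72 in BIO cellulates and -2.17 in myoblasts, so both cellulate arrays stood well above the myoblast array. The log2 difference was 2.90 ± 0.25 for BIO cellulates minus myoblasts. Only 79 of 12829 genes (0.616%) had a larger positive difference. For neurogenic cellulates minus myoblasts it was 2.10 ± 0.25, or 4.28-fold higher. Between the cellulates it was -0.80 ± 0.22, short of 2-fold and past the spot limit. The excess over myoblasts was smaller after normexp background correction, 1.63 in BIO and 1.14 in neurogenic cellulates, and stayed past 2-fold.

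Znrf3 was close to background throughout, with 18.5 units in neurogenic cellulates, 21.7 units in BIO cellulates and 19.5 units in myoblasts. On the neurogenic array it was not well above background. Its log2 difference of 0.81 ± 0.37 for BIO cellulates minus myoblasts was the same size as the median of 0.82 over the 668 genes of like brightness, that is, genes measured on both arrays within 0.5 log2 of the same mean intensity. The 2 ligases thus differed in what could be seen of them. Rnf43 exceeded the genes of its brightness, whose median was 0.12, by 2.78, and Znrf3 by -0.02.

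The 250 bases before the most upstream annotated start of Rnf43, and the same stretch for Nkd2, are shown because these are the genes that stood highest over myoblasts. Both were searched on both strands for the TCF/LEF core CTTTG followed by 2 bases that are each A or T, and neither holds one, so no base is in capitals. The sequences are from RefSeq, assembly GRCm38.p6, and read 5′ to 3′ on the strand of the gene. The Rnf43 stretch lies at chr11:87662837-87663086 on the plus strand, with 44.4% G and C. The Nkd2 stretch lies at chr13:73847632-73847881 on the minus strand, with 58.4% G and C.
Rnf43: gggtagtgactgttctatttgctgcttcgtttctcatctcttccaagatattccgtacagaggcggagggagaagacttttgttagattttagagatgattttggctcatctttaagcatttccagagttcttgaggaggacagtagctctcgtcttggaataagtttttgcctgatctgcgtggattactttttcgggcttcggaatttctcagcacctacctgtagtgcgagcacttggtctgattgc
Nkd2: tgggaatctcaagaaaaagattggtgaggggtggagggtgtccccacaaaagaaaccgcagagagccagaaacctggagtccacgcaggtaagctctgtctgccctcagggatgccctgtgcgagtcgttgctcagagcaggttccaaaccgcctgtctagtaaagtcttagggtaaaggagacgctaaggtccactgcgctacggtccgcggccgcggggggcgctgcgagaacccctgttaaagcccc

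Of the 10 genes, 7 had promoters in the RefSeq table, with 12 starts in all. Kremen1, Znrf3 and Ccn4 had none there. The stretches before the starts of Wif1, Axin2, Nkd1 and Tcf7 held no match either. Lef1 had the only match, before the most downstream of its 4 starts. That is 1 of 12 stretches, while 14.8% of 32851 promoters in the table held at least 1 match in the same length. A match is a run of letters and no evidence of binding, and its lack says nothing of the factor.

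The intracellular feedback inhibitors act at Dishevelled (Nkd1 and Nkd2) and in the destruction complex (Axin2). Nkd2 gave 17.3 units in neurogenic cellulates, 91.7 units in BIO cellulates and 33.3 units in myoblasts by its brighter probe. The scaled signals were -3.17, -0.33 and -2.44 in that order, so the BIO array stood above both others. The neurogenic signal was not well above background. The log2 difference was 2.12 ± 0.24 for BIO cellulates minus myoblasts, and 170 of 12829 genes (1.33%) had a larger one. In neurogenic cellulates Nkd2 was at least 4.74-fold lower than in BIO cellulates, a bound of -2.25, and 11 of 12255 genes lay lower.

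The dimmer probe of Nkd2 was not well above background on any array. It gave 11.6 units in neurogenic cellulates, 11.6 units in BIO cellulates and 5.69 units in myoblasts. Taking the median over both probes ended the 2-fold call between the cellulates, at -0.75, and left 1.90 for BIO cellulates minus myoblasts. After normexp correction that difference was 1.13.

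Nkd1, the close relative of Nkd2, was measured by both of its probes on every array. The brighter probe gave 88.5 units in neurogenic cellulates, 57.8 units in BIO cellulates and 55.8 units in myoblasts. The log2 differences from myoblasts were 0.88 ± 0.25 in neurogenic cellulates and 0.70 ± 0.25 in BIO cellulates by this probe. By the dimmer probe they were 0.40 ± 0.33 and 0.32 ± 0.32, inside the spot limit. Between the cellulates Nkd1 differed by 0.18 ± 0.26. Genes as bright as the brighter probe had a median of 0.23 for BIO cellulates minus myoblasts, and with each array scaled to its median intensity the Nkd1 value was -0.01.

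Axin2, the scaffold protein widely used as a readout of beta-catenin activity, was not well above background on any array. Its 1 named probe gave 5.91 units in neurogenic cellulates, 3.99 units in BIO cellulates and 3.07 units in myoblasts. The software's error was nearly as large as the signal on each array, at 5.88, 3.98 and 3.06 units. On the same arrays no probe fainter than 26.2, 17.3 and 13.6 units was flagged as well above background. The plain log2 difference of 1.03 for BIO cellulates minus myoblasts was near the median of 1.01 over the 5450 genes dim on both arrays. A change of Axin2 RNA was therefore not detectable with this probe, which does not show that there was none.

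**Figure D2:**
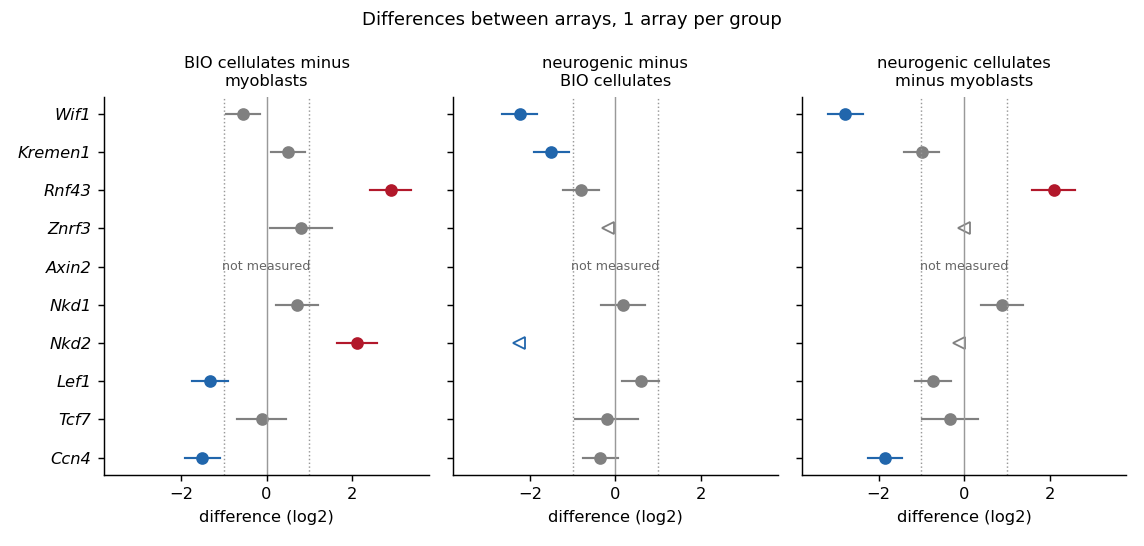
Log2 differences of the 10 genes in the 3 comparisons, 1 array per group. Circles are genes measured on both arrays with the 95% interval from the scanner software's error, open triangles are bounds for genes dim on the neurogenic array, dotted lines mark 2-fold, red is at least 2-fold higher and blue at least 2-fold lower. Rnf43 and Nkd2 lie to the right in BIO cellulates against myoblasts, and Wif1, Kremen1 and Nkd2 lie to the left in neurogenic against BIO cellulates.

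The DNA-binding partners of beta-catenin differed from each other. Lef1 had 225 units in neurogenic cellulates, 110 units in BIO cellulates and 432 units in myoblasts. Its scaled signals of 0.53, -0.06 and 1.25 put BIO cellulates lowest and myoblasts highest. The log2 difference was -1.32 ± 0.21 for BIO cellulates minus myoblasts and 0.59 ± 0.22 for neurogenic minus BIO cellulates. For neurogenic cellulates minus myoblasts it was -0.73 ± 0.21. The match in Lef1 lies 147 to 141 bases before its most downstream start. It is shown in capitals within 30 bases at chr3:131156136-131156165, plus strand of GRCm38.p6, and reads as CTTTGTA on the opposite strand.
Lef1: caacctcagaaTACAAAGtaggattgcatt

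Tcf7, which encodes TCF-1, was near background. The brighter probe gave 29.9 units in neurogenic cellulates, 25.5 units in BIO cellulates and 43.5 units in myoblasts. Its log2 difference was -0.12 ± 0.30 for BIO cellulates minus myoblasts and -0.21 ± 0.38 between the cellulates, both inside the spot limit. Genes of like brightness had a median of 0.54 in the first of these comparisons, so Tcf7 lay 0.65 below them. The dimmer probe, not well above background on any array, gave 1.67 ± 1.08 there, and the median over both probes was 0.78. With each array scaled to its median it was -0.83, and after normexp correction 0.17, so the sign for Tcf7 depended on the probe and on the setting.

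Ccn4, also known as Wisp1, encodes a secreted matricellular protein that was found as a gene induced by Wnt1. It had 2448 units in neurogenic cellulates, 2300 units in BIO cellulates and 10248 units in myoblasts. The scaled signals were 3.98, 4.32 and 5.82, so both cellulates lay below myoblasts. The log2 difference from myoblasts was -1.85 ± 0.20 in neurogenic cellulates (3.60-fold lower) and -1.50 ± 0.20 in BIO cellulates. Between the cellulates it was -0.35 ± 0.20, beside a median of -0.26 for genes of like brightness, and it was 0.01 with spike-in scaling.

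**Figure D3:**
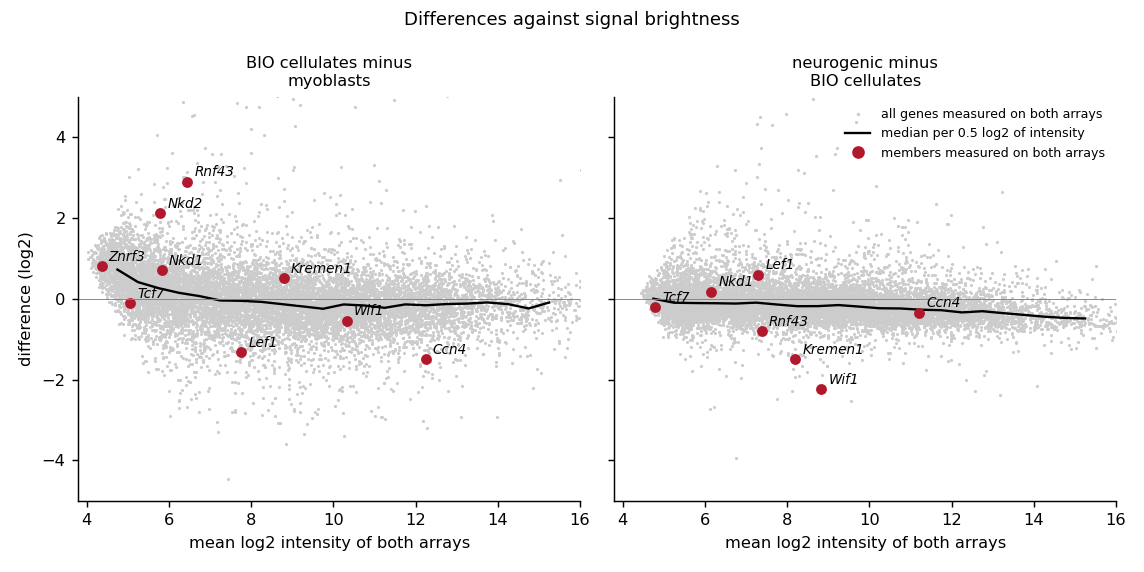
Log2 difference against mean log2 intensity of both arrays for all genes measured on both (grey), with the median in steps of 0.5 log2 (line) and the 10 genes where measured (red). Genes past 5 on the log2 scale, 18 on the left and 2 on the right, are outside the axes. Dim genes lie above 0 on the left, where Znrf3 sits on the median line, while Rnf43 and Nkd2 stand above it and Lef1 and Ccn4 below.

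Inhibitors that act on ligands and receptors included genes that were lower after neurogenic medium. Wif1 was 4.71-fold lower and Kremen1 2.82-fold lower in neurogenic than in BIO cellulates. With Nkd2, whose value is a bound, that made 3 of 9 genes at least 2-fold lower, where 1.80% of 12255 genes were. At least 2-fold higher were 0 of 9, where 4.16% were. Among genes measured on both arrays, 2 of 7 were lower, where 1.41% of 10875 were. With so few genes these counts say little about the group. The median of the 9 was -0.35, beside -0.17 over all genes compared. Of the 15 muscle markers, 2 were at least 2-fold higher and 0 lower between these arrays, with a median log2 difference of -0.13. The part that the differing fibroblast markers Dcn and Postn had in these values was not tested.

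Wif1, a secreted protein that binds Wnt ligands and keeps them from their receptors, had 244 units in neurogenic cellulates, 847 units in BIO cellulates and 1948 units in myoblasts. The scaled signals were 0.65, 2.88 and 3.43, so neurogenic cellulates stood far below both other arrays. The log2 difference was -2.23 ± 0.21 for neurogenic minus BIO cellulates, and 12 of 12255 genes (0.0979%) lay lower. For neurogenic cellulates minus myoblasts it was -2.78 ± 0.21, or 6.88-fold lower. For BIO cellulates minus myoblasts it was -0.55 ± 0.20, short of 2-fold.

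Kremen1, a receptor for Dickkopf proteins that helps take LRP co-receptors off the surface, had 203 units in neurogenic cellulates, 422 units in BIO cellulates and 468 units in myoblasts. Its scaled signals were 0.38, 1.88 and 1.37, so neurogenic cellulates were again lowest. The log2 difference was -1.49 ± 0.21 for neurogenic minus BIO cellulates. It was 0.51 ± 0.20 for BIO cellulates minus myoblasts, and -0.21 under array-median scaling. For neurogenic cellulates minus myoblasts it was -0.99 ± 0.21, just short of 2-fold.

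The third comparison shares an array with each of the others, so its values are not independent of them. In neurogenic cellulates against myoblasts, 1 of 9 genes (Rnf43) was at least 2-fold higher, where 12.1% of 12855 genes were. At least 2-fold lower were 2 of 9 (Wif1 and Ccn4), where 10.0% of genes were. The median of the 9 was -0.32, beside -0.06 over all genes. The Nkd2 probe, high in BIO cellulates, was not well above background in neurogenic cellulates and gave a bound of -0.13.

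The order of the 3 arrays therefore differed from gene to gene. Wif1 was highest in myoblasts and lowest in neurogenic cellulates. Ccn4 was highest in myoblasts, and its order between the cellulates was not settled, since the software's 95% interval of -0.75 to 0.05 included 0 and the sign depended on the scaling. Lef1 was highest in myoblasts and lowest in BIO cellulates. Rnf43 and Nkd2 were highest in BIO cellulates, and Rnf43 alone of these also stood above myoblasts in neurogenic cellulates. Kremen1 was lowest in neurogenic cellulates, and its order between BIO cellulates and myoblasts was not settled. That step was only just past the spot limit of 0.48 and ran from -0.21 to 0.67 over the settings. For Nkd1 the cellulates did not differ beyond the spot limit, and for Tcf7 no pair did.

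Among 10665 other genes measured on all 3 arrays, the closest patterns were taken by Euclidean distance between centred log2 signals over the 3 arrays, which is few points. Rnf43 lay closest to Stac3 and Coro6, each at 0.24. Wif1 lay closest to Dner at 0.12 and Cilp at 0.30, and Kremen1 to Car3 at 0.04 and Syt13 at 0.11. Lef1 lay closest to Ankrd44 and Myh10, each at 0.03, and Ccn4 to Gng2 at 0.02 and Zfp41 at 0.05. Within 0.5 lay 9 genes for Wif1, 20 for Rnf43, 98 for Kremen1, 544 for Lef1 and 470 for Ccn4. Genes with rarer differences have fewer neighbours at a fixed distance, so these counts largely repeat the ranks of the differences.

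Other genes of the pathway were described from 4 lists, whose counts are small and moved with the scaling. In the destruction complex and its regulators, 2 of 17 genes compared were at least 2-fold lower in BIO cellulates than in myoblasts, where 6.01% of all genes were, and 0 higher, where 11.2% were. The median was -0.10, and the lower count ran from 1 to 5 over the other settings. The 2 were Amer1 (2.07-fold), a partner of APC, and Frat1 (2.28-fold), which binds GSK-3 and keeps Axin from it. Frat1 had 285 units in both cellulate cultures and 1026 units in myoblasts. After scaling, its log2 difference was -0.44 for neurogenic minus BIO cellulates. In neurogenic cellulates against myoblasts 2 of 17 were lower (10.0% of all genes), Frat1 with a log2 difference of -1.63 and Amer1 with -1.28, and 0 higher (12.1%), with 1 to 7 lower over the other settings. Between the cellulates 0 of 16 passed 2-fold in either direction, and 1 was higher under 4 of the other settings. Named for their roles after their values were seen, Gsk3b had log2 differences of -0.24 for BIO cellulates minus myoblasts and -0.05 between the cellulates, and Axin1 of -0.38 and -0.27.

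Among membrane reception and transduction genes, 0 of 14 passed 2-fold in BIO cellulates against myoblasts in either direction. Over the other settings the lower count ran from 0 to 3, with 3 under array-median scaling, and the higher count from 0 to 1. Between the cellulates, Dact1, which binds Dishevelled, was the 1 of 13 at least 2-fold lower (2.29-fold), where 1.80% of all genes were, and 0 were higher, where 4.16% were. With normexp correction and with spike-in scaling 0 of the list were lower there, and 2 with no filter on dim probes. The higher count between the cellulates was 0 or 1 over the other settings. In neurogenic cellulates against myoblasts, 3 of 15 were lower, where 10.0% of all genes were, and 1 higher, where 12.1% were. Rspo1, an R-spondin ligand that counters Rnf43 and Znrf3, had 2234 units in neurogenic cellulates, 3064 units in BIO cellulates and 8924 units in myoblasts. It was 3.44-fold lower in neurogenic cellulates than in myoblasts, with a log2 difference of -0.89 in BIO cellulates. The R-spondin receptor gene Lgr4 was at least 3.43-fold lower in neurogenic cellulates than in myoblasts and Dact1 3.05-fold lower, while Dact2 was 2.78-fold higher. Lrp5, Lrp6 and Dact3 had no named probe.

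In the nuclear complex and its corepressors, 1 of 17 genes was at least 2-fold lower in BIO cellulates than in myoblasts, the corepressor gene Tle1 (2.07-fold), where 6.01% of all genes were, and 0 were higher, where 11.2% were. Their median was -0.27. The lower count was 0 with the percentile over probes well above background, 3 after normexp correction, 4 with spike-in scaling and 8 with array-median scaling. Ctnnb1, the gene of beta-catenin itself, named for its role after its value was seen, had log2 differences of -0.27 for BIO cellulates minus myoblasts and -0.12 between the cellulates. The TCF factor gene Tcf7l2 was 2.44-fold and the plakoglobin gene Jup 2.23-fold lower in neurogenic cellulates than in myoblasts, the 2 of 18 that were (10.0% of all genes). That count ran from 0 to 11 over the other settings. Hic1, a transcriptional repressor gene, had 202 units in neurogenic cellulates, 18.6 units in BIO cellulates and 14.0 units in myoblasts by 1 probe. It was well above background in neurogenic cellulates alone, at least 8.04-fold higher than in BIO cellulates, and was the 1 of 17 past 2-fold there (4.16% of all genes were higher).

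The 44 other reported targets also lay on both sides. Of 32 compared between BIO cellulates and myoblasts, 3 were at least 2-fold higher, where 11.2% of all genes were, and 5 lower, where 6.01% were, with a median of -0.13. Over the other settings the higher count ran from 1 to 8 and the lower count from 3 to 14. The adhesion gene Nrcam was 4.83-fold higher, and Edn1, which encodes endothelin-1, was 2.44-fold lower. The follistatin gene Fst was 2.07-fold lower and Birc5, the survivin gene of dividing cells, at least 5.44-fold lower. The others, named after their values were seen, were Ccn5 (2.52-fold) and Fgf9 (2.18-fold) on the higher side and Runx2 (3.21-fold) and Id2 (2.00-fold) on the lower side.

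Between the cellulates 3 of 29 of these targets were at least 2-fold lower, where 1.80% of all genes were, and 1 higher, where 4.16% were. Over the other settings the lower count ran from 1 to 3 and the higher count from 0 to 3. Fst had 3051 units in neurogenic cellulates, 9005 units in BIO cellulates and 29378 units in myoblasts, and was 4.00-fold lower in neurogenic than in BIO cellulates. Edn1 was 2.35-fold lower, Bmp4, named after its value was seen, had a log2 difference of -1.05, and Birc5 was at least 13.5-fold higher by a single probe that was dim in BIO cellulates. In neurogenic cellulates against myoblasts, 4 of 32 were higher (12.1% of all genes) and 6 lower (10.0%), with 2 to 11 higher and 4 to 14 lower over the other settings. Nrcam was 7.41-fold higher, Fst 8.28-fold lower and Edn1 5.75-fold lower. Ccnd1 had no named probe on the arrays.

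**Figure D4:**
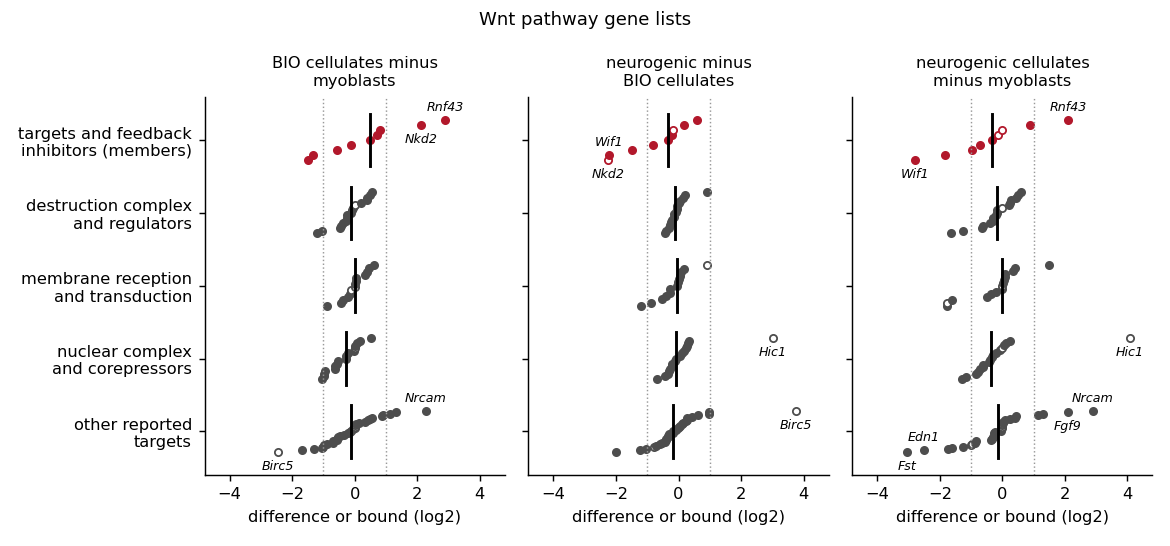
Log2 differences or bounds of the 10 genes (red) and of 4 other Wnt pathway lists (dark grey) in the 3 comparisons. Each circle is a gene that could be compared, open circles are bounds, black bars are medians, dotted lines mark 2-fold, and genes at least 4-fold different are named. The medians of the 4 other lists lie between -0.37 and 0.00, and single genes lie far out in most lists.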

How the data were processed

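Arrays of design 014868 were quantified with Agilent Feature Extraction 10.7.3.1, per the file headers. The deposited scanner output gives a processed intensity per spot, linear and background-subtracted, with its error and a flag for well above background. The genome build in those headers is mm9, so coordinates here come only from the RefSeq tables of GRCm38.p6. The authors' deposited value table holds log2 values equal to the log2 intensity plus a constant per array (0.23, 0.67 and 0.00 for neurogenic cellulates, BIO cellulates and myoblasts, whose columns have medians of 7.88, 7.77 and 7.42). The table is not centred by gene, and its direction is that of the signal. The constants lie close to the log2 shifts relative to myoblasts that the main percentile scaling makes, though how they were derived is not known. For genes with values on both arrays, the deposited table therefore nearly repeats the main scaling and is no independent check of it. The tables held 0 columns of samples outside the series. Per the labels, 200 ng of RNA was labelled with Cy3.

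Control spots and outlier flags were dropped. Repeat spots were combined as mean log2 values. Each array was scaled to its 75th percentile (156, 115 and 181 intensity units in the same order). Of 41174 probes, 26918 were named through unversioned RefSeq accessions and 14256 were not, so further probes of the 10 genes may be among the unnamed. Each gene was represented by its brightest probe, by mean over the arrays. Genes whose dim probe on an array had a bright partner were left out of the bounds. Wtx and Troy, older names of Amer1 and Tnfrsf19, were dropped from the pathway lists as repeats. The genes named from each list were the 4 with the largest difference past 2-fold, and the 2 closest patterns were named for each of the 10 genes measured on all arrays and past 2-fold. Alternatives were array-median scaling, a percentile over probes well above background, quantile normalisation, normexp (limma 3.58.1, R 4.3.3, offset 50), spike-in scaling, the deposited values, no filter on dim probes, genes with no bound only, and the median of a gene's probes. Since the files hold no mean spot signal, normexp used the median signal. The fold calculation was tested on simulated data. The members and lists were chosen with earlier results of these data known. The number of cultures behind an array is not given in the sources used here, and the small number of arrays limits the precision.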

Additional observations from a re-analysis of the deposited data

How the results depend on the processing

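No paired analysis was possible because each group had 1 array, and for the same reason no array could be left out. The 10 differences past 2-fold kept their sign under every setting that gave a value, and all but 1 stayed past 2-fold. Not every setting could change them. For a gene with 1 probe measured on both arrays, dropping the filter, leaving out bounds or taking the probe median returns the same value. The deposited values nearly repeat the main scaling, with 2.91 beside 2.90 for Rnf43 in BIO cellulates minus myoblasts. The exception was Nkd2 between the cellulates, at -0.75 with the median over its probes. The median over the 9 genes was less stable. For BIO cellulates minus myoblasts it was 0.51, against -0.21 with array-median scaling, 0.16 after quantile normalisation and -0.017 after subtracting the median of genes of like brightness, a setting added after seeing the data. For neurogenic minus BIO cellulates it was -0.35, against 0.00 with spike-in scaling and -0.68 with the median over probes. For neurogenic cellulates minus myoblasts it was -0.32, against -1.05 with array-median scaling, 0.00 with the percentile over probes well above background and with the median over probes, -0.68 after quantile normalisation, -0.028 after normexp, -0.71 in the deposited values, -0.73 among genes measured on both arrays and -0.79 after the brightness adjustment. There, 2 genes in place of 1 were at least 2-fold higher with the percentile over probes well above background, with spike-in scaling and with no filter on dim probes, and 5 in place of 2 were lower with array-median scaling. The cause of these shifts was not tested.

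Array-median scaling put the median of all genes at -0.65 in place of 0.00 for BIO cellulates and at -0.79 in place of -0.06 for neurogenic cellulates, both against myoblasts, so Lef1 at -2.04 and Ccn4 at -2.22 in BIO cellulates are to be read against that shift. Of all genes at least 2-fold different in BIO cellulates against myoblasts, 65.1% were higher, and between 9.07% (array-median scaling) and 81.0% (no filter) under other settings. Between the cellulates it was 69.9%, and 62.5% to 91.9%. In neurogenic cellulates against myoblasts it was 54.7%, and 11.5% to 78.9%. Counts of such genes varied too. In BIO cellulates against myoblasts 1440 were higher (301 to 4385 elsewhere) and 771 lower (554 to 3701). Between the cellulates 510 were higher (200 to 1032) and 220 lower (70 to 619). In neurogenic cellulates against myoblasts 1557 were higher (527 to 5118) and 1291 lower (620 to 4997). Signal over background limits Axin2, Znrf3, Tcf7 and the neurogenic Nkd2 value.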
